A study of Homo sapiens with 12 samples.

Results

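The genes described here encode proteins that license DNA for replication, or that cullin-RING ubiquitin ligases degrade while they hold replication to a single round. They are CDT1, GMNN, CDC6, ORC1, KMT5A, CCNE1, CCNE2, E2F1, DTL and WEE1. They were taken by gene name from a table of 62232 rows, of which 61541 were Ensembl genes, and all 10 were found once. K562, an established line of human chronic myelogenous leukemia cells that carry the BCR::ABL1 fusion kinase, was the only material. Polyadenylated RNA was sequenced after 12 h in 4 groups of 3 libraries, named control, MLN4924 (25 µM), imatinib (0.5 µM) and imatinib + MLN4924 at the same doses. Imatinib inhibits the BCR::ABL1 kinase, and MLN4924 inhibits the enzyme that activates the ubiquitin-like protein NEDD8. What the control cells received is not given in the sources used here, nor whether replicate libraries were grown as separate cultures. P-values therefore measure only the spread between these libraries, which may be technical.

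A replication origin is licensed when the origin recognition complex, CDC6 and CDT1 load the MCM helicase onto it, and geminin, the product of GMNN, blocks a second loading by binding CDT1. Cullin ligases must carry NEDD8 to be active. CRL4-Cdt2, in which the DTL product recognises substrates, degrades CDT1 and the histone methyltransferase KMT5A during S phase, and SCF ligases take CDT1, the E cyclins, E2F1 and WEE1. Loss of NEDD8 conjugation is known to stabilise CDT1 protein and to let DNA replicate again within a cycle. The values below are messenger RNA levels, and no protein was measured.

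The members were among the better expressed genes. The values are TPM, a gene's share of its library's transcripts corrected for transcript length. They ran from 11.6 TPM, for E2F1 in a control library, to 216 TPM, for GMNN in an MLN4924 library. By its mean over the 12 libraries, GMNN stood above 95.8% and E2F1 above 55.0% of the 15478 genes tested. A gene was tested if it reached at least 1 TPM in at least 3 libraries, and all 10 members passed. Tests used limma on log2(TPM + 1), with p-values adjusted by Benjamini-Hochberg over all tested genes and a threshold of 0.05, and every log2 fold change below is on that scale. Of all tested genes, 26.3% rose and 27.5% fell with imatinib, 7.36% rose and 7.11% fell with MLN4924, and 22.6% rose and 20.5% fell from imatinib to imatinib + MLN4924. These shares are the background for the counts of genes given below. Since the values are shares of bulk RNA, a shift in the phase of the cell cycle in which cells stand and a change in RNA per cell cannot be told apart.

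Libraries of the same group correlated at r = 0.971 to 0.980 over the tested genes, and no 2 libraries were copies of each other, since 0.969% to 1.51% of values were identical. Depth is unknown because only TPM were available. The share of mitochondrial transcripts was 17.7% ± 0.466 with imatinib, 15.2% ± 0.439 with both drugs, 13.4% ± 0.593 with MLN4924 and 13.2% ± 0.428 without either (SD, n = 3). A rescaling of the libraries over 14481 genes changed them by factors between 0.969 and 1.03, and the member calls between imatinib and control held under it. Erythroid markers of K562 were high, with HBG2 at 7943 TPM or more and GATA1 at 127 TPM or more in each library. MS4A1, CD3E, COL1A1 and COL3A1 stayed under 1 TPM. CD3D reached 59.4 TPM, EPCAM 46.8 TPM and KRT19 192 TPM, and whether those transcripts touch the members was not tested. The third imatinib library stood apart from the other two for several members, and results that rest on it are given with and without it.

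The promoters of most members shared a match to the binding motif of E2F factors, the family to which E2F1 itself belongs. RefSeq promoters on GRCh38.p14, from 250 bases before to 50 after a transcript start, were matched for 8 members, with WEE1 and CCNE2 named only. The E2F letters TTTNNCGC, searched on both strands, were present for 6 of the 8 members (DTL, GMNN, KMT5A, CDT1, CDC6 and E2F1). Counted by promoter, they were in 6 of the 10 promoters of these 8 members, and in 6.89% of all 35116 promoters. CCAAT, bound by NF-Y, was found for 6 of 8 members (ORC1, DTL, GMNN, KMT5A, CDC6 and E2F1), without overlap with an E2F match in these members. It was in 6 of the 10 member promoters and in 34.6% of all promoters. TTTGAA, the CHR element of G2/M genes, was found for 0 of 8 members and in 15.2% of all promoters. A match is a description of letters and no evidence of binding.

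The 130 bases before the start are shown for CDT1, the member with the largest imatinib response, for its inhibitor GMNN at its downstream start, and for E2F1, whose window held 4 matches. Sequences run 5′ to 3′ on the gene's strand, and capitals mark E2F matches on either strand, of which the last 2 of E2F1 overlap. CDT1 occupied chr16:88803659-88803788 (plus strand), GMNN chr6:24775283-24775412 (plus strand, within the first part of the annotated gene) and E2F1 chr20:33686386-33686515 (minus strand). For DTL (chr1:212035729-212035758, plus strand) and CDC6 (chr17:40287875-40287904, plus strand) only 30 bases around the match are shown, because these lie at the transcript start.
CDT1: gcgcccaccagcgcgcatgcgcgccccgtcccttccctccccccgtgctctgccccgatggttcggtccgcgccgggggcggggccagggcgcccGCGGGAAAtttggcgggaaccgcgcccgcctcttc
GMNN: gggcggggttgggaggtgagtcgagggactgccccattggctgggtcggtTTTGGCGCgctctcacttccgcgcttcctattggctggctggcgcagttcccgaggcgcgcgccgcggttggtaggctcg
E2F1: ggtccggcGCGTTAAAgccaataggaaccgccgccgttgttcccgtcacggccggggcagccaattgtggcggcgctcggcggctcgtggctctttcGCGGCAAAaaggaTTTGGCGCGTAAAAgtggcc
DTL: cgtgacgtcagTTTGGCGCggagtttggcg
CDC6: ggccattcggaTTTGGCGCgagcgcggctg

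CDT1 was the member that imatinib raised most, and with MLN4924 added it was back within reach of the control level. CDT1 (ENSG00000167513, chromosome 16, 88803789 to 88809258, plus strand, GRCh38) encodes the factor that brings the MCM helicase to origins. Its level was 102, 79.5 and 85.4 TPM in the control libraries and 70.5, 79.4 and 75.1 TPM with MLN4924. It was 151, 157 and 125 TPM with imatinib and 100.2, 100.5 and 91.8 TPM with both drugs. All 3 imatinib libraries lay above the other 9, and the combined treatment overlapped control. The rise with imatinib was 0.70 ± 0.10 (SE) with an adjusted p of 0.000198, and the fall from imatinib to imatinib + MLN4924 was -0.56 ± 0.10 with an adjusted p of 0.00153. Both calls held when any of the 12 libraries was left out. MLN4924 alone gave -0.24 (95% interval -0.47 to -0.01, adjusted p 0.160), and the MLN4924 libraries lay just below the control ones.

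GMNN, the gene of the licensing inhibitor, was the most abundant member and passed the threshold in none of the comparisons. GMNN (ENSG00000112312, chromosome 6, 24774931 to 24786099, plus strand) stood at 186, 172 and 198 TPM in control and at 216, 190 and 197 TPM with MLN4924. The levels were 157, 154 and 198 TPM with imatinib and 189, 200.4 and 199.9 TPM with both drugs. The first and second imatinib libraries were the lowest of the 12, while the third lay at the top of the control range. Imatinib against control gave -0.14 (95% interval -0.35 to 0.07, adjusted p 0.237). Without the third imatinib library it gave -0.25 with an adjusted p of 0.0122. Without the first it gave -0.09 (adjusted p 0.523), and without the second -0.07 (adjusted p 0.580). Imatinib + MLN4924 against imatinib gave 0.22 with an adjusted p of 0.0779, and 0.34 with an adjusted p of 0.00336 without the third imatinib library. Without the first it gave 0.17 (adjusted p 0.234), and without the second 0.16 (adjusted p 0.257).

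The balance of CDT1 to GMNN transcripts was highest in the imatinib group. The ratio of CDT1 to GMNN TPM within a library was 0.546, 0.462 and 0.432 in control and 0.325, 0.417 and 0.382 with MLN4924. It was 0.967, 1.02 and 0.634 with imatinib and 0.530, 0.501 and 0.459 with both drugs. Every imatinib library exceeded all 9 others, and the second alone held more CDT1 than GMNN transcripts. The mean was 0.874 ± 0.210 with imatinib (0.994 without its library of replicate 3), 0.497 ± 0.0356 with both drugs, 0.480 ± 0.0594 in control and 0.375 ± 0.0460 with MLN4924 (SD, n = 3). These ratios are a description, without a test.

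**Figure D1:**
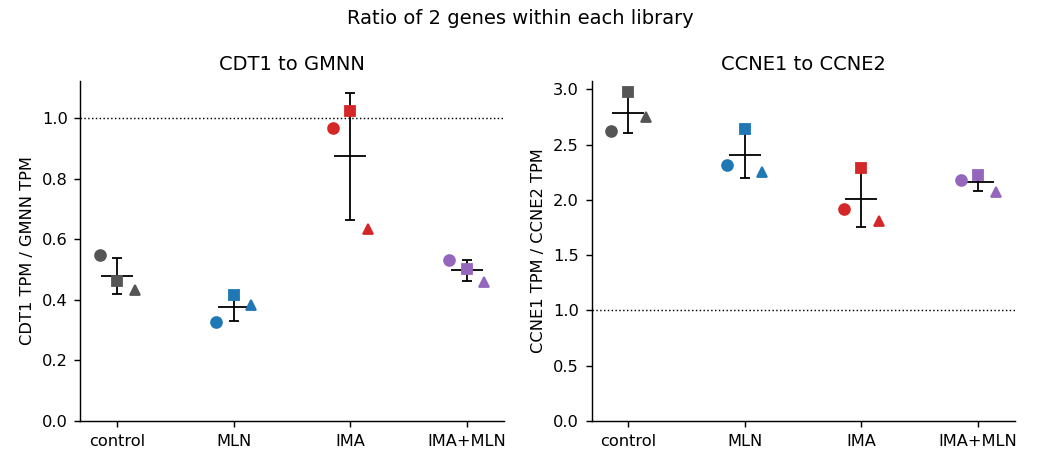
Ratio of TPM of CDT1 to GMNN (left) and of CCNE1 to CCNE2 (right) in each of the 12 libraries. Symbols are replicates 1 (circle), 2 (square) and 3 (triangle), bars are the mean ± SD of 3 libraries, MLN stands for MLN4924 and IMA for imatinib, and the dotted line marks equal levels. The 3 imatinib libraries, between 0.634 and 1.02, lie above all others for CDT1 to GMNN, and CCNE1 exceeds CCNE2 in every library.

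CDC6, which joins ORC to form the platform for MCM loading, moved opposite to CDT1 under imatinib. CDC6 (ENSG00000094804, chromosome 17, 40287879 to 40304657, plus strand) stood at 76.5, 73.8 and 79.7 TPM in control and at 84.7, 74.7 and 76.1 TPM with MLN4924. It was 52.1, 53.3 and 72.4 TPM with imatinib and 72.1, 72.0 and 70.6 TPM with both drugs. The imatinib libraries were below control in all 3 cases, but the third was only just so. The change was -0.38 ± 0.11 with an adjusted p of 0.0108, and leaving out 1 library at a time gave values from -0.53 to -0.30 with an adjusted p of at most 0.0497. With imatinib + MLN4924 against imatinib it was 0.28 with an adjusted p of 0.0517, and without the third imatinib library 0.43 with an adjusted p of 0.000401. Without the first imatinib library it was 0.20 (adjusted p 0.193), and without the second 0.22 (adjusted p 0.181).

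Across the 12 libraries CDC6 tracked GMNN (Pearson r of log2(TPM + 1) = 0.88) and ran against CDT1 (r = -0.87). Within groups, after the group means were taken out, the same values were 0.94 and -0.62. The points share the treatments and the third imatinib library, so these correlations are a description.

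ORC1, the regulated subunit of the origin recognition complex, stayed between 51.2 and 61.1 TPM in all 12 libraries. ORC1 (ENSG00000085840, chromosome 1, 52372829 to 52404423, minus strand) had group means of 59.2 TPM with both drugs, 58.1 TPM with imatinib, 54.5 TPM with MLN4924 and 60.5 TPM in control. No comparison passed. The 3 MLN4924 libraries were all below control, at -0.15 (95% interval -0.30 to -0.00, adjusted p 0.171). Imatinib against control gave -0.06 with a 95% interval of -0.21 to 0.09.

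**Figure D2:**
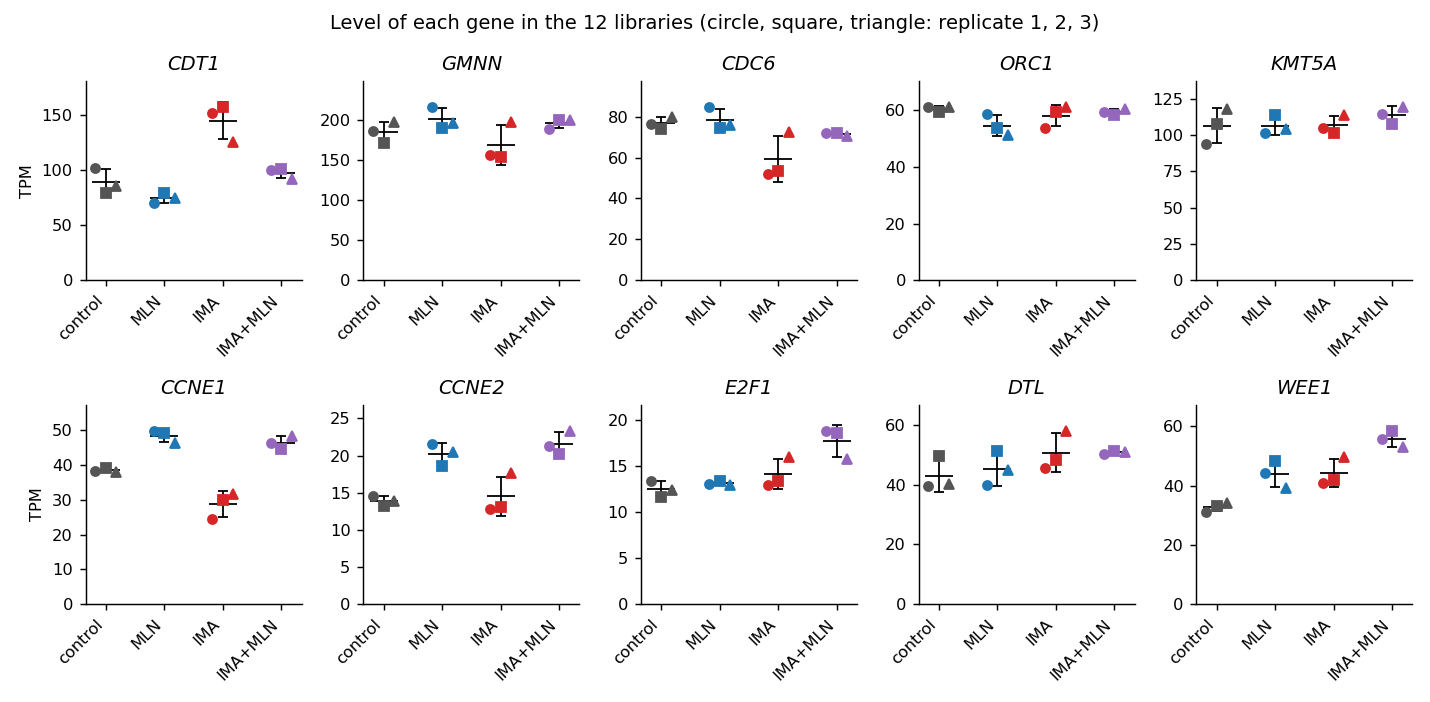
TPM (vertical axis, from 0) of the 10 members in the 4 groups, where MLN is MLN4924 and IMA is imatinib. Symbols are the libraries by replicate number, and bars are the mean ± SD (n = 3). CDT1 stands apart in the 3 imatinib libraries, at 125 to 157 TPM, CCNE2 is higher in both groups with MLN4924, and WEE1 rises from control to the combined treatment.

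The wider machinery that recognises origins and loads MCM fell in part under imatinib. Of 16 genes, members included, 1 rose (CDT1) and 7 fell, 8 did not pass, and the median log2 fold change was -0.17, against 0.02 over all tested genes. The largest falls were those of MCMBP, an MCM-binding protein (26.4 to 13.9 TPM, -0.90, adjusted p 0.000319), the ORC subunit ORC5 (39.1 to 25.3 TPM, -0.62, adjusted p 0.00085) and the helicase subunit MCM3 (226 to 167 TPM, -0.45, adjusted p 0.000756). Among all tested genes 26.3% rose and 27.5% fell with imatinib. With 1 library left out in turn, the count that fell ran from 6 to 10 of the 16, the latter without the third imatinib library. With MLN4924 alone 0 of the 16 rose, also at an unadjusted p under 0.05, and 2 fell, the helicase subunits MCM2 (111 to 82.1 TPM, -0.43, adjusted p 0.00158) and MCM5 (74.0 to 61.7 TPM, -0.26, adjusted p 0.0462), of which 1 was left in 8 of the 12 runs with 1 library left out. From imatinib to imatinib + MLN4924, 4 of 16 rose, a share near the 22.6% of all tested genes, with MCMBP, ORC3 and ORC5 first, and CDT1, MCM2 and MCM5 fell. The count that rose was 2 without the first or second imatinib library or the third library of the combined group, and at most 6 in the other runs.

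Genes that fire licensed origins did not share a direction. Of 14 such genes, 5 rose and 4 fell with imatinib, near the shares of all tested genes (26.3% and 27.5%), and 3 to 6 fell when 1 library was left out. DONSON, which helps to assemble the active helicase, rose from 55.2 to 76.6 TPM (0.46, adjusted p 3.41e-05), while MCM10 fell from 45.5 to 33.8 TPM (-0.43, adjusted p 0.0129) and GINS3, a subunit of the GINS complex of the helicase, from 35.6 to 26.5 TPM (-0.41, adjusted p 0.00765). TICRR and MTBP, partners in helicase activation, were higher with MLN4924 alone, by 0.30 (adjusted p 0.0117) and 0.26 (adjusted p 0.0399), and GINS2 was lower by -0.34 (adjusted p 0.041).

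DTL, the substrate receptor of CRL4-Cdt2, passed in none of the 6 comparisons with all libraries. DTL (ENSG00000143476, chromosome 1, 212035553 to 212107400, plus strand) averaged 50.9 TPM with both drugs, 50.8 TPM with imatinib, 45.4 TPM with MLN4924 and 43.1 TPM in control, over a range of 39.6 to 58.1 TPM. Imatinib against control gave 0.23 (95% interval -0.02 to 0.49, adjusted p 0.113), and without the second control library, which at 49.5 TPM was the highest of that group, 0.34 with an adjusted p of 0.0368. DTL overlaps INTS7 on the opposite strand, at 24.6 to 34.4 TPM, and whether the counting used strand is not given in the sources used here.

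KMT5A, the histone H4 lysine 20 monomethyltransferase degraded by CRL4-Cdt2, had group means close to each other and passed in none of the comparisons. KMT5A (ENSG00000183955, chromosome 12, 123384132 to 123409353, plus strand) averaged 114 TPM with both drugs, 107 TPM with imatinib, 106 TPM with MLN4924 and 106 TPM in control, within 93.6 to 119 TPM. Imatinib against control was 0.01 with a 95% interval of -0.18 to 0.20, and MLN4924 against control 0.01 with an interval of -0.18 to 0.19. Its 3 listed pseudogenes reached at most 0.72 TPM.

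Within the CRL4-Cdt2 ligase, the scaffolds moved in opposite directions with imatinib. CUL4A fell from 64.6 to 42.0 TPM with imatinib (-0.61, adjusted p 3.56e-05) and stood at 56.7 TPM with imatinib + MLN4924. CUL4B was 32.3 TPM in control, 41.0 TPM with MLN4924 (0.34, adjusted p 0.00185), 39.5 with imatinib (0.28, adjusted p 0.000943) and 47.6 with both (0.55, adjusted p 4.88e-05, against control). Of the 6 genes of the ligase, 2 rose (CUL4B and the adaptor DDB1) and 2 fell (CUL4A and the RING subunit RBX1) with imatinib, and 1 rose and 1 fell with MLN4924. The counts with imatinib were near the 26.3% and 27.5% of all tested genes. With MLN4924 those shares were 7.36% and 7.11%. The count that fell with imatinib was 1 without the first or the third control library or the first or second imatinib library, and the fall with MLN4924 was lost in 7 of 12 such runs. PCNA, the clamp that presents substrates to this ligase, and DTL did not pass.

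Some other cell cycle substrates of cullin ligases had larger changes than any member. CDKN1A, encoding the CDK inhibitor p21, went from 9.87 TPM in control to 25.9 TPM with MLN4924 (1.31, adjusted p 0.00132). CDKN1C, encoding p57, went from 13.5 to 73.8 TPM with imatinib (2.33, adjusted p 6.38e-06), and was 5.65 TPM with MLN4924 and 11.7 TPM with both drugs. CCND1, encoding cyclin D1, fell from 20.1 to 3.70 TPM with imatinib (-2.28, adjusted p 0.000102), and CDKN1B, encoding p27, rose from 23.4 to 39.6 TPM (0.74, adjusted p 7.21e-05). In all, 4 of these 12 genes rose and 3 fell with imatinib, 2 rose and 1 fell with MLN4924, and 6 rose and 3 fell from imatinib to imatinib + MLN4924. The shares with imatinib were near those of all tested genes (26.3% and 27.5%). For all tested genes they were 7.36% and 7.11% with MLN4924, and 22.6% and 20.5% from imatinib to imatinib + MLN4924. Without the third imatinib library 5 fell with imatinib, and from imatinib to imatinib + MLN4924 the counts ran from 4 to 8 higher and, without the first imatinib library, down to 1 lower.

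CCNE1, one of the E cyclins that activate CDK2 for entry into S phase, fell with imatinib and was higher again when MLN4924 was added. CCNE1 (ENSG00000105173, chromosome 19, 29811991 to 29824312, plus strand) was 38.3, 39.3 and 38.1 TPM in control and 49.9, 49.2 and 46.3 TPM with MLN4924. It was 24.6, 30.0 and 31.8 TPM with imatinib and 46.3, 44.8 and 48.4 TPM with both drugs. Imatinib libraries were the lowest 3, control libraries came next, and the 6 libraries with MLN4924 lay above both and overlapped each other. The fall with imatinib was -0.41 ± 0.09 with an adjusted p of 0.00179. The difference of imatinib + MLN4924 from imatinib was 0.68 ± 0.09 with an adjusted p of 0.000158, the largest among the members there. Both held with any library left out.

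The rise of CCNE1 with MLN4924 alone was less firm. It was 0.32 ± 0.09 with an adjusted p of 0.0278, and leaving out any of the 6 control or MLN4924 libraries gave adjusted p-values of 0.0512 to 0.0893 at 0.30 to 0.36. Imatinib + MLN4924 against control was 0.26 with an adjusted p of 0.0431. That call was lost in 10 of 12 runs with 1 library left out, at adjusted p-values of 0.0523 to 0.103, and held without the first or the third imatinib library.

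CCNE2, the second E cyclin, rose with MLN4924 both with and without imatinib, and did not pass the test with imatinib alone. CCNE2 (ENSG00000175305, chromosome 8, 94879770 to 94896678, minus strand) was 14.6, 13.2 and 13.8 TPM in control and 21.6, 18.7 and 20.5 TPM with MLN4924. It was 12.9, 13.1 and 17.6 TPM with imatinib and 21.2, 20.2 and 23.3 TPM with both drugs. All 6 libraries with MLN4924 exceeded all 6 without. The rise was 0.51 ± 0.11 against control (adjusted p 0.0124) and 0.55 ± 0.11 against imatinib (adjusted p 0.00287), and both held with any library left out. Imatinib against control was 0.05 with a 95% interval of -0.20 to 0.30, and the third library was the high one.

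CCNE2 overlaps INTS8, at 48.3 to 66.2 TPM, and NDUFAF6, at 20.4 to 36.4 TPM, on the opposite strand. NDUFAF6 was lower in all 3 MLN4924 libraries than in control. INTS8 was 48.7, 52.28 and 53.96 TPM in control and 53.8, 61.55 and 66.23 TPM with MLN4924. It thus leaned upward, as CCNE2 did, with a slight overlap of the groups. Whether the counting used strand is not given in the sources used here, and whether these transcripts touch the CCNE2 values was not tested. Between the E cyclins, CCNE1 exceeded CCNE2 by 2.78 ± 0.180 times in control, 2.40 ± 0.206 with MLN4924 alone, 2.01 ± 0.254 with imatinib alone and 2.16 ± 0.0761 with both (ratio of TPM, SD, n = 3).

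E2F1, the transcription factor that drives G1/S genes and that SCF ligases degrade, rose against control with both drugs and did not pass with either alone. E2F1 (ENSG00000101412, chromosome 20, 33675477 to 33686385, minus strand) was 13.4, 11.6 and 12.5 TPM in control and 13.1, 13.4 and 13.0 TPM with MLN4924. It was 13.0, 13.4 and 16.02 TPM with imatinib and 18.9, 18.6 and 15.8 TPM with both drugs. The third library of the combined group lay below the third of imatinib, so these groups overlapped. Against control the rise was 0.47 ± 0.10 with an adjusted p of 0.00534, and it held with any library left out.

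Against imatinib, E2F1 differed by 0.31 with an adjusted p of 0.0265. That call was lost without the first or second imatinib library, or without the first or second library of the combined group, at adjusted p-values of 0.0820 to 0.102, and the adjusted p was 0.0802 when only the 6 libraries compared were fitted. MLN4924 alone gave 0.07 with a 95% interval of -0.15 to 0.29, and imatinib alone 0.17 with an interval of -0.05 to 0.38. The interaction of the drugs, which tests the difference between these patterns, did not pass for E2F1 (0.24, adjusted p 0.265).

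The other genes of the E2F family were counted in the same comparisons. Of 13 genes of the E2F family and its pocket proteins, 3 rose with imatinib, RBL2 (23.0 to 45.02 TPM, 0.93, adjusted p 2.79e-05), E2F2 (10.2 to 17.1 TPM, 0.69, adjusted p 0.000102) and RB1 (14.8 to 18.6 TPM, 0.31, adjusted p 0.00563), while 5 fell, with E2F5 first (18.8 to 10.02 TPM, -0.85, adjusted p 0.000716). Among all tested genes 26.3% rose and 27.5% fell with imatinib. Without the first or the second imatinib library 3 fell. With MLN4924 alone 0 of 13 passed by limma, and at an unadjusted p under 0.05 there were 2 higher and 1 lower. With both drugs 6 rose against control, E2F1 among them, and 0 fell, with 1 lower at an unadjusted p under 0.05. Among all tested genes 12.2% rose and 13.9% fell with both drugs against control.

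The G1/S genes known as E2F targets leaned downward with imatinib. Of 24 such genes, 2 rose, among them TK1, a nucleotide salvage enzyme (146 to 226 TPM, 0.63, adjusted p 0.000147), and 9 fell, with the CDK phosphatase CDC25A (37.8 to 20.8 TPM, -0.84, adjusted p 9.03e-05) and UHRF1 (54.2 to 37.4 TPM, -0.54, adjusted p 0.00198) first. The members CCNE1 and CDC6 were among those that fell. Among all tested genes 26.3% rose and 27.5% fell with imatinib. The median of the list was -0.17. With 1 library left out in turn, the count that fell ran from 7 to 15, the latter without the third imatinib library. MLN4924 alone raised 3 of 24, which were CCNE2, CCNA2 and CCNE1, and lowered MCM2 and MCM5, of which 1 was left in 8 of 12 runs with 1 library left out. From imatinib to imatinib + MLN4924 8 rose and 4 fell, while 14 rose without the third imatinib library and 5 without the first. The shares of all tested genes were 7.36% and 7.11% with MLN4924, and 22.6% and 20.5% from imatinib to imatinib + MLN4924.

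WEE1 rose in each comparison of a treated group with control and stood highest with both drugs. WEE1 (ENSG00000166483, chromosome 11, 9573670 to 9593457, plus strand) encodes the kinase that holds CDK1 inactive before mitosis. Its level was 31.2, 33.1 and 34.2 TPM in control and 44.1, 48.1 and 39.3 TPM with MLN4924. It was 40.9, 42.0 and 49.5 TPM with imatinib and 55.6, 58.5 and 53.0 TPM with both drugs. All control libraries were below, and all libraries of the combined group above, the 6 single-drug ones, which overlapped each other.

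The rise of WEE1 was 0.41 ± 0.09 with imatinib (adjusted p 0.00272), 0.40 ± 0.09 with MLN4924 (adjusted p 0.0132) and 0.75 ± 0.09 with both (adjusted p 0.000241). The first and last held with any library left out. The MLN4924 call was lost without the first control library (adjusted p 0.0517) or the second MLN4924 library (0.0608). Imatinib + MLN4924 exceeded imatinib by 0.33 (adjusted p 0.0129), a call lost without the first (0.0555) or the second (0.0511) imatinib library. The interaction was -0.07 with a 95% interval of -0.36 to 0.21, so a departure from the sum of the single effects within these bounds was not detectable. A small nucleolar RNA inside WEE1 is listed at 105 TPM in the second imatinib library and at 0 elsewhere, and WEE1 was not the highest of its group there.

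**Figure D3:**
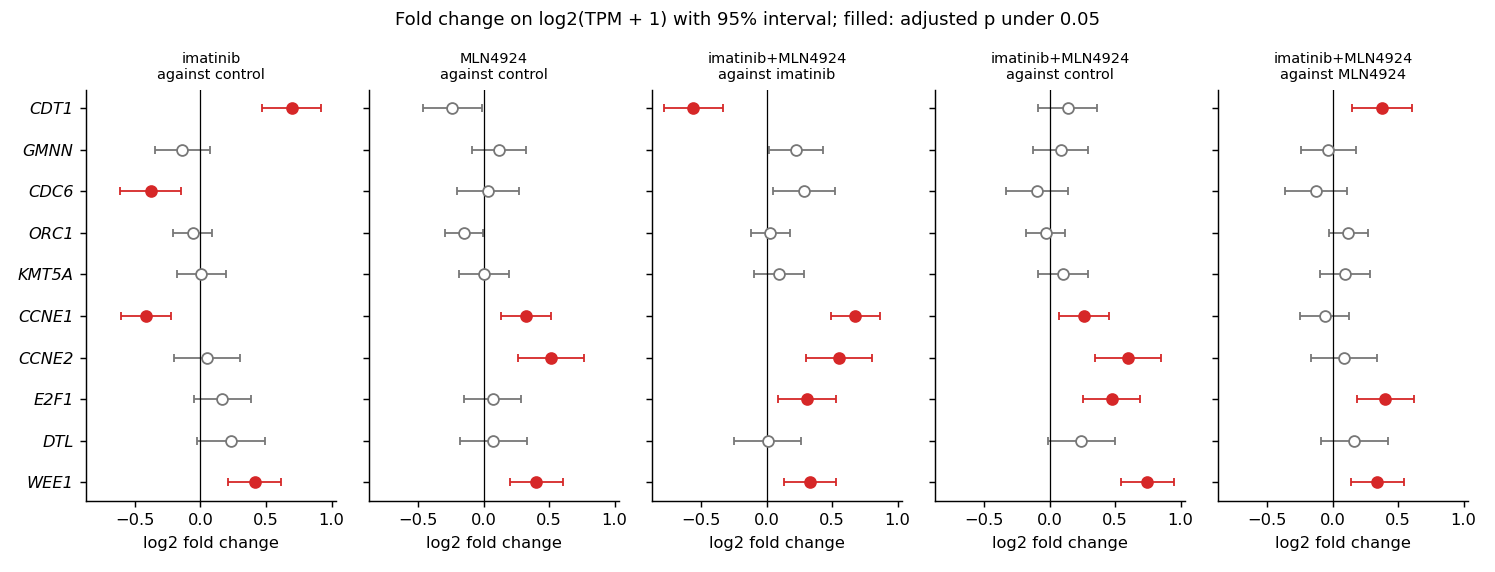
Log2 fold change on log2(TPM + 1) of each member in 5 comparisons, with its 95% interval from the limma fit of 12 libraries. Filled red points passed an adjusted p of 0.05. CDT1 lies at 0.70 with imatinib and at -0.56 when MLN4924 is added to imatinib, CCNE1 at -0.41 and 0.68, and WEE1 is to the right of 0 in every comparison.

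The genes that open and close the G2/M gate around WEE1 rose widely with MLN4924. Of 13 genes, WEE1 included, 10 rose and 0 fell by limma, with none lower at an unadjusted p under 0.05 and a median of 0.37 against -0.00 over all tested genes. Among all tested genes 7.36% rose and 7.11% fell with MLN4924. AURKA, a kinase that activates PLK1, went from 71.5 to 112 TPM (0.64, adjusted p 0.000348), PLK1, which promotes mitotic entry, from 113 to 170 TPM (0.59, adjusted p 0.000136) and CDC25C, the phosphatase that opposes WEE1, from 14.4 to 19.8 TPM (0.44, adjusted p 0.0285). The 3 that did not pass were CDC25A, CDK2 and PKMYT1, the WEE1-related kinase (92.6 and 81.7 TPM, -0.18). At least 7 of 13 rose with any library left out.

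With imatinib alone the same list split, with 5 rising and 2 falling (1 falling without the first or the second imatinib library), where 26.3% and 27.5% of all tested genes did. CDC25C rose from 14.4 to 28.3 TPM (0.93, adjusted p 6.38e-05) and CCNB2, a B cyclin, from 78.4 to 121 TPM (0.62, adjusted p 7.93e-06), whereas CDC25A and CCNB1 (228 to 199 TPM, -0.19, adjusted p 0.0169) fell. With both drugs 10 rose and 1, CDC25A, fell against control (lost without the second control library or the first or second library of the combined group), and from imatinib to imatinib + MLN4924 7 rose and 0 fell. CCNB1 led the latter, from 199 to 285 TPM (0.51, adjusted p 9.35e-05). Among all tested genes 12.2% rose and 13.9% fell with both drugs against control. From imatinib to imatinib + MLN4924 those shares were 22.6% and 20.5%.

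**Figure D4:**
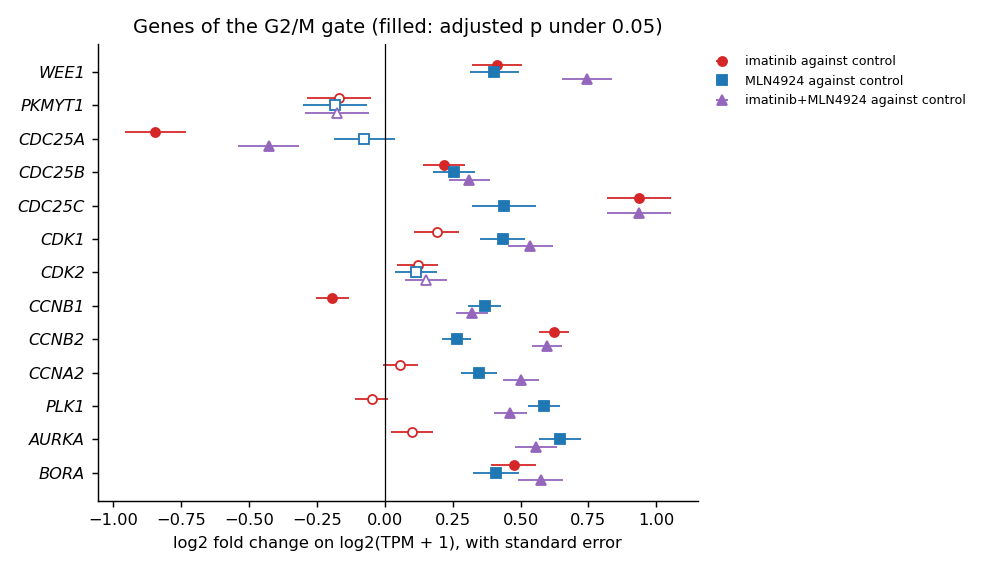
Log2 fold change against control, with its standard error, of the 13 genes of the G2/M gate for imatinib (circles), MLN4924 (squares) and both drugs (triangles). Filled symbols passed an adjusted p of 0.05. With MLN4924, 10 of 13 are filled and to the right of 0, and CDC25A is the gene farthest to the left, at -0.84 with imatinib.

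The ligases that act on the members were counted against control for each drug, and from imatinib to imatinib + MLN4924. The single drugs were not compared with each other. Of 13 genes of SCF and of the anaphase-promoting complex's activators and inhibitor, 1 rose and 7 fell with imatinib, where 26.3% and 27.5% of all tested genes did, and 4 fell without the first or the second imatinib library. BTRC, a receptor for WEE1, rose from 8.27 to 14.4 TPM (0.73, adjusted p 2.81e-05), and the scaffold CUL1 fell from 87.1 to 57.3 TPM (-0.60, adjusted p 0.000205) and SKP2, a receptor for CDT1, from 69.2 to 55.7 TPM (-0.32, adjusted p 0.00884). With MLN4924 5 rose and 0 fell, with none lower at an unadjusted p under 0.05, led by the mitotic activator CDC20 (135 to 187 TPM, 0.47, adjusted p 0.000136), FZR1 (21.8 to 30.1 TPM, 0.44, adjusted p 0.0117) and FBXW7, the receptor for E cyclins (9.85 to 13.5 TPM, 0.42, adjusted p 0.0402). Of all tested genes 7.36% rose with MLN4924, and in the list 3 rose without the second MLN4924 library. From imatinib to imatinib + MLN4924 7 rose and BTRC fell, where 22.6% and 20.5% of all tested genes did.

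Counted over the members, imatinib changed as many up as down. Against control 2 of 10 rose, CDT1 and WEE1, and 2 fell, CDC6 and CCNE1, where 26.3% of all tested genes rose and 27.5% fell. The member share was thus near or below that of all genes. The median log2 fold change was 0.03 over the members and 0.02 over all tested genes.

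MLN4924 alone raised 3 of 10 members, CCNE1, CCNE2 and WEE1, and lowered 0, where 7.36% of all tested genes rose and 7.11% fell. At an unadjusted p under 0.05 there were 5, with CDT1 and ORC1 lower. Adding MLN4924 to imatinib raised 4 of 10, CCNE1, CCNE2, E2F1 and WEE1, and lowered 1, CDT1, against 22.6% and 20.5% of all tested genes. The median over the members was 0.25, and 0.00 over all tested genes.

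Both drugs against control raised 4 of 10 members, CCNE1, CCNE2, E2F1 and WEE1, and lowered 0, also at an unadjusted p under 0.05, against 12.2% and 13.9% of all tested genes. It was 3 in 10 of the 12 runs with 1 library left out, since CCNE1 was lost. Both drugs against MLN4924 raised 3, CDT1 (0.38, adjusted p 0.0326), E2F1 (0.40, adjusted p 0.0211) and WEE1 (0.34, adjusted p 0.0288), and lowered 0, also at an unadjusted p under 0.05, against 7.73% and 8.48%.

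The calls against MLN4924 were close to the threshold. None of the 3 passed without the first MLN4924 library, the third MLN4924 library, or the first or second library of the combined group, and WEE1 alone passed without the second MLN4924 library. Their log2 fold changes stayed between 0.27 and 0.48 over the 12 runs with 1 library left out. Calls over all tested genes also went down in those 5 runs, from 2508 to between 1025 and 1419. The comparisons share groups, so the counts are not independent of each other.

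The interaction of imatinib and MLN4924, which asks whether both together differ from the sum of the single effects on the log2 scale, passed by limma for 0 of 10 members, where 9.06% of all tested genes had a higher and 7.35% a lower value than the sum. At an unadjusted p under 0.05 there was 1 member, CCNE1, with 0.36 ± 0.12 and an adjusted p of 0.0675. After rescaling of the libraries CCNE1 passed, at 0.35 with an adjusted p of 0.0399. CDT1 had -0.32 (adjusted p 0.153) and CDC6 0.25 (adjusted p 0.274).

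These interaction values depended on the third imatinib library. Without it CDC6 gave 0.40 (adjusted p 0.00762), CCNE1 0.43 (adjusted p 0.0173) and CDT1 -0.42 (adjusted p 0.0383), and all 3 passed, while 25.7% of all tested genes passed in either direction. Each of the 3 passed in only 1 of the 12 runs with 1 library left out. Over these runs the values went to 0.17 for CDC6, 0.25 for CCNE1 and -0.24 for CDT1. Their highest adjusted p-values were 0.499, 0.135 and 0.307. Calls over all tested genes went from 2540 with all libraries to 1189 without the first and 1055 without the second imatinib library. The other 7 members did not pass in any of the 12 runs with 1 library left out. Among the 24 E2F targets 0 passed with all libraries (at an unadjusted p under 0.05, 7 were positive and 2 negative) and 11 passed, all with positive values, without the third imatinib library.

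**Figure D5:**
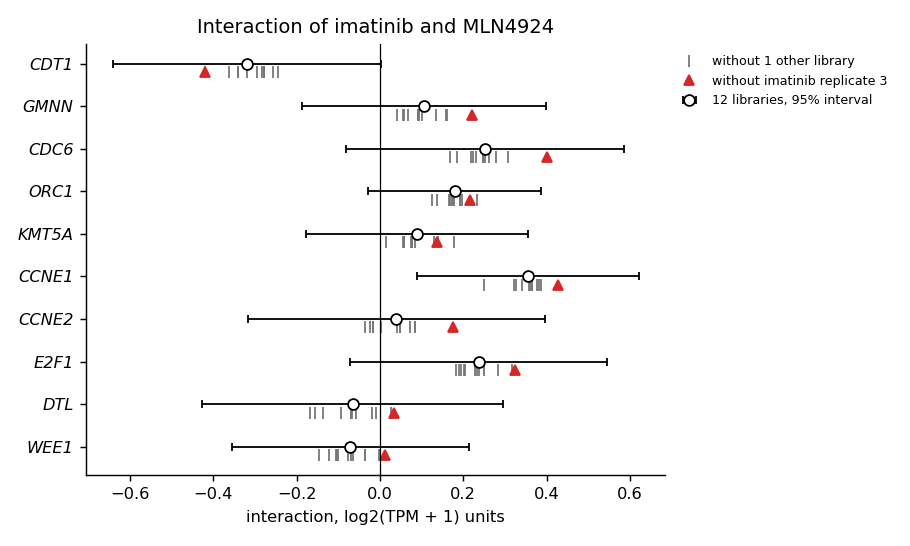
Interaction of imatinib and MLN4924 for each member, in log2(TPM + 1) units, where 0 means that the drugs add up. Open circles are the fit of 12 libraries with its 95% interval, grey ticks leave out 1 other library, and red triangles leave out the third imatinib library. CDT1 moves from -0.32 to -0.42, CDC6 from 0.25 to 0.40 and CCNE1 from 0.36 to 0.43 without it.

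Genes with the most similar patterns to the members over the 12 libraries were sought among 9844 protein-coding genes by Pearson r of log2(TPM + 1). For CDT1 they were CLSTN3 (r = 0.994), with group means of 13.1 TPM in control, 10.5 TPM with MLN4924 alone, 23.5 TPM with imatinib alone and 14.1 TPM with both, and ACSL6 (r = 0.987). For CCNE1 they were CBR1 (r = 0.988), at 51.1, 92.1, 22.6 and 83.9 TPM in the same order, and DLD (r = 0.983). For WEE1 they were the mitotic genes BUB1 (r = 0.960) and CKAP2 (r = 0.959). BUB1 is a kinase of the spindle checkpoint and CKAP2 a spindle protein.

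For the other members, GMNN was closest to TEX30 (r = 0.951), CDC6 to OSTC (r = 0.968), CCNE2 to ZBTB5 (r = 0.958), E2F1 to OSER1 (r = 0.935) and KMT5A to THOC1 (r = 0.908). DTL was closest to MXI1 (r = 0.855) and ORC1 to NCOA5 (r = 0.833). The points share the treatments, and the best of many genes is high by selection, so these are descriptions without a test. Among the members themselves, E2F1 and WEE1 had r = 0.85, and CCNE1 and CCNE2 r = 0.78.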

How the data were processed

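The deposited values are TPM per gene, to 2 decimals, which the authors made with fastp (trimming), HISAT2 (alignment to hg38) and StringTie (assembly and quantification). The submitters' processing notes also name featureCounts, but no count was analysed here. TPM are shares of each library, and a value of 0 can be a failed estimate. DESeq2 was not used, since it needs counts. The R package limma 3.58.1 (R 4.3.3) with trended prior variance was fitted to log2(TPM + 1) of 15478 Ensembl genes that reached 1 TPM in 3 or more libraries, in 1 fit of 4 group means over 12 libraries. P-values were two-sided and adjusted by Benjamini-Hochberg over all tested genes. Intervals are 95% and come from that fit. The calls of the fit, but not its intervals, were tried on simulated data with independent noise and few changed genes. Tables were handled with Python 3.11.15, numpy 2.4.6 and pandas 2.3.3. Gene positions came from GENCODE release 44, which held 61369 of the 61541 identifiers. Promoters came from RefSeq.

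The members and all gene lists were chosen with earlier results of these data known. Named genes were all members, up to 3 genes a direction with the largest change past the threshold in each list, the 2 genes most alike each member among genes of at least 5 TPM in 1 group, and marker genes. A list count of 5 or fewer may name more. Some genes that this rule would name are not reported here. Alternatives were a pseudocount of 0.1 TPM, no filter, a minimum of 5 TPM, median-of-ratios scaling, no trend, a replicate block, only the libraries compared, and leaving out each library.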

Additional observations from a re-analysis of the deposited data

How the results depend on the processing

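The imatinib calls on CDT1, WEE1, CDC6 and CCNE1 and the calls from imatinib to imatinib + MLN4924 on CDT1, CCNE1 and CCNE2 held under every alternative run, and no call on a member reversed. A pseudocount of 0.1 TPM changed no call on a member. Leaving out 1 library at a time, members called ranged from 4 to 5 for imatinib against control, 1 to 3 for MLN4924 against control, 3 to 7 for imatinib + MLN4924 against imatinib, 3 to 4 for imatinib + MLN4924 against control, 0 to 3 for imatinib + MLN4924 against MLN4924 and 0 to 3 for the interaction. Without a filter, 1 member instead of 3 was called for imatinib + MLN4924 against MLN4924, and the calls over all genes went from 2508 to 1515 there and from 2540 to 1398 for the interaction, with 32062 genes tested in place of 15478. Without a filter, CCNE1 also lost its call for MLN4924 (adjusted p 0.0504) and for both drugs against control (adjusted p 0.0744). With median-of-ratios scaling 1 member, CCNE1, was called for the interaction, and CDC6 passed for imatinib + MLN4924 against imatinib (adjusted p 0.0434), as it did with a minimum of 5 TPM (adjusted p 0.0449). Without trend CCNE1 for both drugs against control (adjusted p 0.0622) and CDT1 for both drugs against MLN4924 (adjusted p 0.0532) did not pass. The causes were not tested.

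The replicate numbers gave little sign of pairing the libraries. Deviations of same-numbered libraries from their group means correlated at -0.0591 to 0.185, and a library's own number was highest in 6 of 18 pairs. The value was above 0.1 in 1 of 18 pairs, at 0.185 for the third imatinib library and the third library of the combined group. Whether these libraries share a factor was not tested. With the replicate number as a block, 4, 3, 5, 3, 3 and 0 members were called in the 6 comparisons as ordered above, and CCNE1 for both drugs against control (adjusted p 0.0558) was the only member call lost.

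With 3 libraries a group and depth unknown, small differences in ORC1, KMT5A and DTL were not detectable beyond their intervals.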

Other observations

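Genes of the replication checkpoint, which senses stalled forks, moved both ways with imatinib and little with MLN4924. Of 20 such genes, 9 rose and 6 fell with imatinib, where 26.3% and 27.5% of all tested genes did. BRCA2, which acts in homologous recombination, rose from 6.09 to 13.5 TPM (1.03, adjusted p 0.00187), the kinase gene ATM from 21.2 to 32.0 TPM (0.57, adjusted p 0.00812) and FANCD2, of the Fanconi anemia pathway, from 78.9 to 109 TPM (0.47, adjusted p 0.00694). ATR, the kinase gene at the head of the replication checkpoint, fell from 14.2 to 8.23 TPM (-0.73, adjusted p 0.00158), and H2AX, a histone variant marked at damaged DNA, from 174 to 115 TPM (-0.59, adjusted p 0.000918). Without the third imatinib library 7 rose and 7 fell, and without the first imatinib or the third control library 3 fell. With MLN4924 alone 0 rose by limma, also at an unadjusted p under 0.05, and 2 fell, H2AX (174 to 118 TPM, -0.57, adjusted p 0.00622) and TIMELESS (59.4 to 49.9 TPM, -0.25, adjusted p 0.0108), of which 1 was left without the third MLN4924 library.

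Genes of histone H4 lysine 20 methylation, in which KMT5A sets the first methyl group, rose more often than they fell with imatinib. Of 8 genes, 4 rose and 1 fell with imatinib, where 26.3% and 27.5% of all tested genes did. KMT5C, which adds further methyl groups, rose from 26.4 to 42.1 TPM (0.65, adjusted p 0.000274) and KMT5B, its relative, from 13.9 to 19.9 TPM (0.49, adjusted p 0.00551), while the demethylase gene PHF8 fell from 17.3 to 14.5 TPM (-0.24, adjusted p 0.0309). With MLN4924 1 gene rose, TP53BP1, whose product reads this mark at DNA breaks (13.9 to 19.98 TPM, 0.49, adjusted p 0.0306), and 0 fell by limma, with 1 lower at an unadjusted p under 0.05. These counts changed with single libraries, between 3 and 5 higher and 0 and 1 lower with imatinib, and between 0 and 1 higher with MLN4924.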
